A study of Mus musculus with 52 samples.

Results

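Rnf17, Gpat2, Ccnb3 and Psma8 are 4 genes of germ cells that were measured in primary mouse osteosarcomas, malignant bone tumours, in which the p53 tumour suppressor gene Trp53 was mutated in different ways. They were chosen from 20730 genes because earlier results of these data showed that they differed by genotype, so their differences between genotypes are given here as a description with no test. All 4 have a row in the count table and all 4 passed the filter on low counts. Rows for genes of very low total count had been removed upstream, and a gene near 0 in most tumours could hold a row only through a few high ones.

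The 3 genotypes were compared as follows. Tumours labelled p53R245W/fl carried 1 allele with the missense change R245W and 1 conditional (fl, floxed) allele. Tumours labelled p53R172H/fl carried the missense change R172H with 1 conditional allele, and tumours labelled p53fl/fl carried the conditional allele on both copies. The agent that recombined the conditional alleles, the cells in which it acted, and the age and sex of the mice are not stated in the labels. The 52 libraries were 17 of p53R245W/fl, 19 of p53R172H/fl and 16 of p53fl/fl, and column names place them in 3 sets, called A, B and C. Each of the 18 set B libraries matched 1 set A or C library of its own genotype, and matched libraries were summed as 1 tumour. That gave 34 tumours, of which 11 were p53R245W/fl, 13 p53R172H/fl and 10 p53fl/fl. The matches come from the data and not from the labels, so 34 is an inferred number of tumours. Apart from set B, all 11 p53R245W/fl tumours came from set C, against 5 of 13 p53R172H/fl and 2 of 10 p53fl/fl tumours, and genotype and library set can be told apart only in part. Total counts per library ranged from 21596798 to 67223388. In 3 tumours of p53R245W/fl (1580, 1831 and 1835) the bone collagen gene Col1a1 lay under 13 log2 CPM (CPM are counts scaled to a common library size).

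Trp53 checked the labels of the missense groups against p53fl/fl. It could not check p53R245W/fl against p53R172H/fl labels, where it was not called (log2 fold change -0.05, SE 0.14, edgeR adjusted p 0.865). It lay at 22.25, 31.94 and 55.38 CPM (lowest, median and highest) in p53R245W/fl tumours, 26.85, 36.34 and 48.69 CPM in p53R172H/fl tumours and 9.8, 17.23 and 19.48 CPM in p53fl/fl tumours, so that neither missense group overlapped the p53fl/fl group.

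Germ cells express a set of genes that body cells keep silent. In body cells, methylation of CpG-rich promoters and a Polycomb complex holding E2F6, MGA, MAX and PCGF6 keep many of these genes off. Many of them serve meiosis or the piRNA pathway, in which small RNAs bound to PIWI proteins silence transposons in the testis, and such genes are a common class of ectopic transcripts in tumours. Rnf17 encodes a RING finger protein with Tudor domains that acts in the piRNA pathway and is required for spermatid development in mice. Gpat2 encodes a mitochondrial member of the glycerol-3-phosphate acyltransferase family that is abundant in testis and takes part in making piRNAs. Ccnb3 encodes cyclin B3, which drives anaphase of the first meiotic division in mouse oocytes. Psma8 encodes α4s, the subunit that stands in for Psma7 in the proteasome of spermatocytes and spermatids.

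Start regions of Gpat2 and Ccnb3 are shown because CpG content and the binding letters of the repressor complex are what is known to govern germline genes. RefSeq entries on GRCm38.p6 gave 250 bases before to 50 bases after the annotated start. The Gpat2 window is chr2:127424949-127425248 on the forward strand, and the Ccnb3 window is chrX:7041570-7041869 on the reverse strand, with capitals for a match to GGCGGGA, the letters of an E2F6 site.
Gpat2: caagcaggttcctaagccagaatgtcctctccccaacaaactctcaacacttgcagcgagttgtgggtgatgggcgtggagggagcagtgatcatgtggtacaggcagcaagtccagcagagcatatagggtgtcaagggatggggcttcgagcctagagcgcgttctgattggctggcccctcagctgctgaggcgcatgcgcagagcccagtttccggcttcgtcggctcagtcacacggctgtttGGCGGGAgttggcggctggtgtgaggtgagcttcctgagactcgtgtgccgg
Ccnb3: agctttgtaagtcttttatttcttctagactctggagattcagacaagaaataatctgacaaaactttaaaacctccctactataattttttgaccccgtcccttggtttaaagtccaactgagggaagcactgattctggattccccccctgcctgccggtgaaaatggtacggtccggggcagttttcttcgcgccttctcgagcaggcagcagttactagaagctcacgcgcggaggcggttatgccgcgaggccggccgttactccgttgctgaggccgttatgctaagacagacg
The Gpat2 window held 15 CpG and the Ccnb3 window 18, against a median of 7 over all promoters in the table, and 34.6% and 29.7% of promoters held at least as many. Observed CpG was 0.58 of that given by base composition in Gpat2 and 0.95 in Ccnb3. Searched on both strands, GGCGGGA occurred in the Gpat2 window, from position 249 of the window, and in 11.3% of 32851 promoters. CACGTG, the E-box that MAX partners bind, occurred in 7.15% of the promoters and in neither window. These are matches of letters, and no factor or methylation was measured.

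Each of the 4 genes had a median of at most 1.72 CPM over the 34 tumours, and single tumours held them at up to 45.16 CPM. A level of 10 CPM, chosen after the values were seen, is used below to name the tumours in which a gene was high. By that level Rnf17 was high in 4 of 34 tumours, Gpat2 in 2, Ccnb3 in 6 and Psma8 in 13. At least 1 of the 4 was high in 4 of 11 p53R245W/fl tumours, 11 of 13 p53R172H/fl tumours and 4 of 10 p53fl/fl tumours. Among all 20730 genes, 3.67% had a median under 1 CPM with at least 1 tumour at 10 CPM or more. A count of 3 in a tumour corresponded to between 0.026 and 0.066 CPM, and values below that are not resolved from 0.

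**Figure D1:**
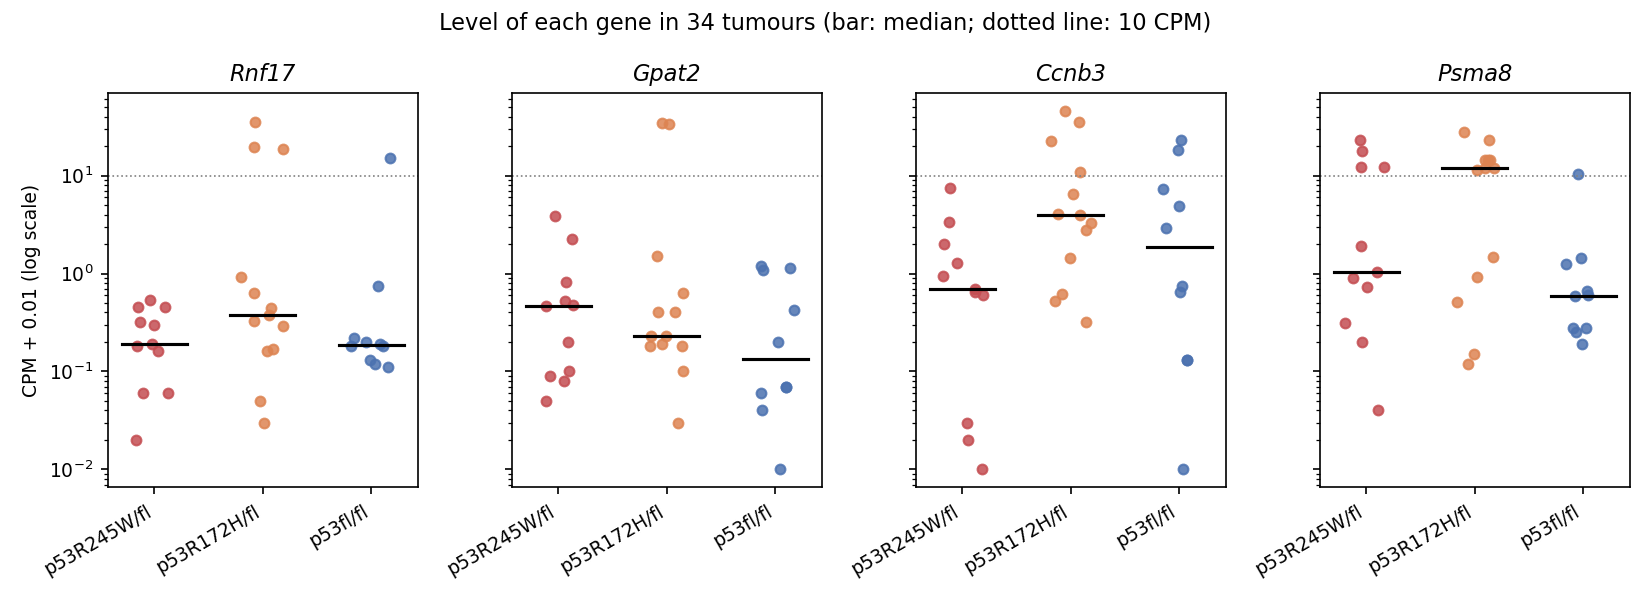
Level of each gene in the 34 tumours by genotype, as CPM with 0.01 added on a log axis. Each point is a tumour, bars are medians and the dotted line is 10 CPM; Psma8 falls into a high and a low cluster, while Ccnb3 spreads without a gap.

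Rnf17 was high in 3 of 13 p53R172H/fl tumours and 1 of 10 p53fl/fl tumours. It lies on the forward strand of GRCm38 chr14:56402581-56525032 (ENSMUSG00000000365). In p53R245W/fl tumours it lay at 0.01, 0.18 and 0.53 CPM (lowest, median and highest), in p53R172H/fl tumours at 0.02, 0.37 and 35.15 CPM, and in p53fl/fl tumours at 0.1, 0.18 and 15.25 CPM. The high tumours were 383 at 35.15 CPM, 1241 at 19.39 CPM and 627 at 18.71 CPM in the p53R172H/fl group, and 1512 at 15.25 CPM in the p53fl/fl group. The next tumour down, 1383, had 0.92 CPM, which is 16.58-fold below the lowest of these 4. The low tumours of the 3 genotypes overlapped. Tumour 383 alone gave 45.9% of the p53R172H/fl sum, and tumour 1512 gave 88.5% of the p53fl/fl sum. The mean was 0.24 ± 0.18 CPM in p53R245W/fl (SD, n = 11), 5.89 ± 11.23 CPM in p53R172H/fl (n = 13) and 1.72 ± 4.76 CPM in p53fl/fl (n = 10). Without tumour 383 the p53R172H/fl mean was 3.45 CPM, and without tumour 1512 the p53fl/fl mean was 0.22 CPM.

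Gpat2 was high in 2 tumours, both p53R172H/fl. It lies on the forward strand of chr2:127425199-127436092 (ENSMUSG00000046338). Its lowest, median and highest levels were 0.04, 0.46 and 3.88 CPM in p53R245W/fl tumours, 0.02, 0.22 and 34.59 CPM in p53R172H/fl tumours, and 0, 0.13 and 1.19 CPM in p53fl/fl tumours. Tumour 627 had 34.59 CPM and tumour 1441 had 33.89 CPM, and the next was p53R245W/fl tumour 1817 at 3.88 CPM, 8.73-fold lower. The mean and the median order the missense groups differently. The mean was 0.8 CPM in p53R245W/fl against 5.57 CPM in p53R172H/fl, while the medians were 0.46 CPM and 0.22 CPM. Without tumour 627, in which both the X-linked Xist (727.15 CPM) and the Y-linked Ddx3y (77.9 CPM) were high, the p53R172H/fl mean was 3.15 CPM. Both tumours with high Gpat2 had a single library, so neither level was measured again. Xist and Ddx3y were also found together, with less Xist, in other tumours where at least 1 of the 4 genes was high. Examples are 1512 (119.31 and 69.94 CPM), 1241 (65.46 and 26.63 CPM), 1439 (38.59 and 23.67 CPM) and 1522 (34.02 and 31.61 CPM).

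Ccnb3 differed from the others in being graded. It lies on the reverse strand of chrX:6979652-7041619 (ENSMUSG00000051592). Lowest, median and highest levels were 0, 0.69 and 7.48 CPM in p53R245W/fl tumours, 0.31, 3.99 and 45.16 CPM in p53R172H/fl tumours, and 0, 1.83 and 23.1 CPM in p53fl/fl tumours. Tumours 1439 at 45.16, 622 at 35.17, 1383 at 22.77 and 621 at 10.88 CPM led the p53R172H/fl group, and tumours 1640 at 23.1 and 1522 at 18.08 CPM led the p53fl/fl group. Below 10 CPM another 13 tumours had at least 1 CPM, and the step from the highest of them, 1832, to tumour 621 was 1.46-fold. No p53R245W/fl tumour reached 10 CPM, and tumour 1831 of that group and 1606 of p53fl/fl had 0 counts, which allow up to 0.031 and 0.062 CPM. The genotypes overlapped throughout their lower ranges.

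Psma8 was high most often and fell into separate clusters. It lies on the forward strand of chromosome 18 (ENSMUSG00000036743). The lowest, median and highest levels were 0.03, 1.03 and 22.88 CPM in p53R245W/fl tumours, 0.11, 11.83 and 27.68 CPM in p53R172H/fl tumours, and 0.18, 0.58 and 10.27 CPM in p53fl/fl tumours. It was high in 4 of 11 p53R245W/fl tumours, between 12.21 and 22.88 CPM, in 8 of 13 p53R172H/fl tumours, between 11.26 and 27.68 CPM, and in 1 of 10 p53fl/fl tumours, 1979, at 10.27 CPM. The other 21 tumours had 1.88 CPM or less, so that no tumour lay in a gap of 5.47-fold. Tumour 1979 gave 65.3% of the p53fl/fl sum, and the mean of the other 9 was 0.61 CPM. In the p53R245W/fl group, the 4 tumours with high Psma8 (1813, 1817, 1827 and 1831) were among the 5 in which the Y-linked Ddx3y was above 20 CPM, and the fifth, 1835, had 0.03 CPM of Psma8. In the p53R172H/fl group, 6 of the 8 tumours with high Psma8 had Ddx3y at 0.28 CPM or less. The part of sex in the p53R245W/fl pattern was not tested.

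High levels repeated wherever a tumour had been measured again. None of the 18 pairs of matched libraries placed any of the 4 genes on opposite sides of 10 CPM. Both libraries were high in 2 pairs for Rnf17, in 3 for Ccnb3 and in 8 for Psma8, and in 0 for Gpat2. Rnf17 in tumour 383 gave 33.34 and 36.88 CPM in its libraries, and in tumour 1241 it gave 19.9 and 18.56 CPM. Ccnb3 gave 43.54 and 47.69 CPM in tumour 1439, 33.79 and 35.75 CPM in tumour 622 and 22.82 and 22.47 CPM in tumour 1640. Psma8 was repeated to within 1.28-fold in all 9 pairs with both libraries over 1 CPM. The SD between matched libraries was 0.61 for Rnf17, 0.64 for Gpat2, 0.52 for Ccnb3 and 0.64 for Psma8 on the log2 CPM scale. Between tumours of 1 genotype the SD was 2.29, 2.33, 2.78 and 2.5 in the same order of genes. Matched libraries were paired by expression of 11294 genes, and whether they came from 1 piece of tissue is not stated in the labels.

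**Figure D2:**
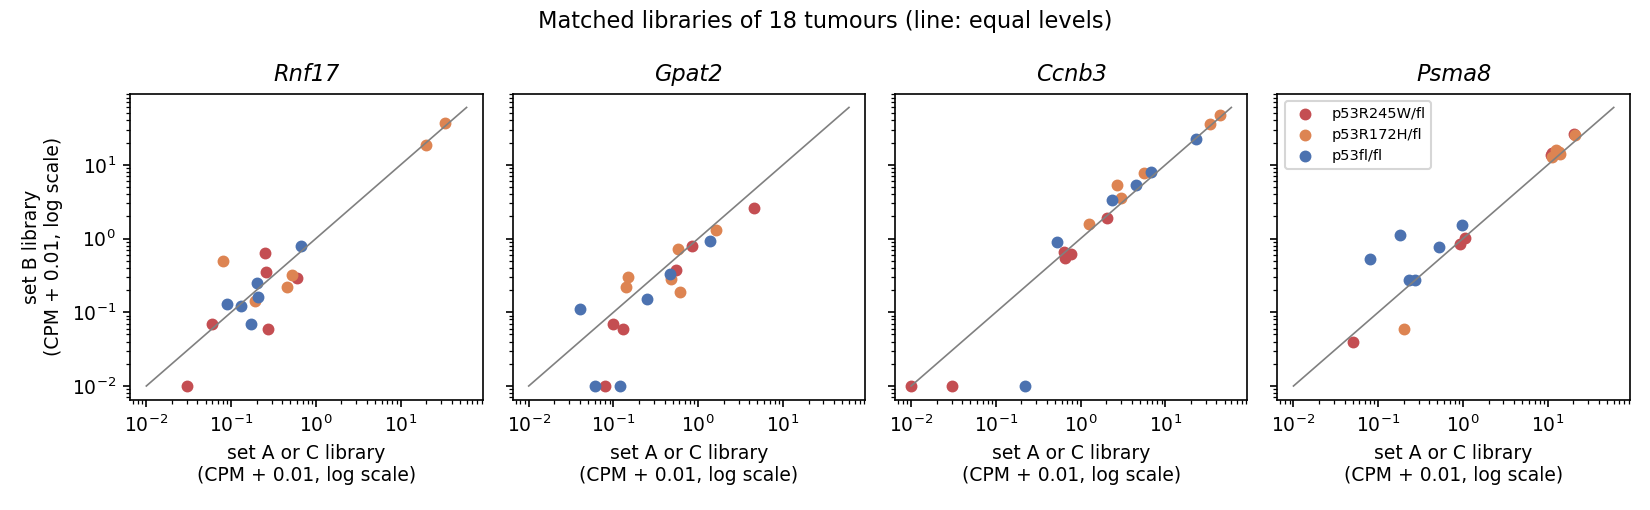
Matched libraries of 18 tumours, with the set A or C library across and the set B library upward, both as CPM with 0.01 added on log axes. Points over 10 CPM lie close to the line of equal levels, and points under 1 CPM scatter most.

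The same tumour did not as a rule carry all 4. Of the 34 tumours, 15 had 0 of the genes at 10 CPM or more, 14 had 1, 4 had 2 and 1 had 3. The tumour with 3 was p53R172H/fl tumour 627, with Rnf17, Gpat2 and Psma8. Rnf17 and Psma8 were high together in 1241, 383 and 627, which are 3 of the 4 tumours with high Rnf17 and 3 of the 13 with high Psma8. Ccnb3 and Psma8 were high together in 621 and 622, 2 of the 6 with high Ccnb3. Rnf17 and Ccnb3 were high together in 0 tumours, as were Gpat2 and Ccnb3. Spearman correlations of log2 CPM between members ranged within genotypes from -0.62 (Gpat2 and Psma8 in p53fl/fl, n = 10) to 0.65 (Rnf17 and Gpat2 in p53R172H/fl, n = 13). These tumours share library preparation and the values share depth, and the correlations are a description.

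Fitted fold changes followed the tumours just named. The edgeR fit over 34 tumours gave Rnf17 a log2 fold change of 1.78 (SE 1.11) for p53R172H/fl versus p53fl/fl, -2.84 (SE 1.17) for p53R245W/fl versus p53fl/fl and -4.62 (SE 1.23) for p53R245W/fl versus p53R172H/fl. For Gpat2 the values in the same order were 3.72 (SE 1.22), 0.93 (SE 1.12) and -2.79 (SE 1.12). Ccnb3 gave 0.87 (SE 0.98), -1.92 (SE 1.03) and -2.79 (SE 1.03), and Psma8 gave 2.7 (SE 0.98), 2.02 (SE 0.97) and -0.68 (SE 0.88). All 4 were thus fitted highest in p53R172H/fl. At an adjusted p under 0.05, 0, 0 and 1 of the 4 were called in these comparisons, the 1 being Rnf17. Over all 19726 genes tested 0.259% were called in p53R172H/fl versus p53fl/fl (0.071% higher and 0.188% lower), 9.04% in p53R245W/fl versus p53fl/fl (4.68% and 4.35%) and 15.2% in p53R245W/fl versus p53R172H/fl (8.8% and 6.41%). The choice of the genes used these contrasts, and nothing is read from the count.

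Differences of median log2 CPM, which single tumours move less, were -0.97 for Rnf17, 0.96 for Gpat2, -2.5 for Ccnb3 and -3.48 for Psma8 in p53R245W/fl minus p53R172H/fl. For p53R172H/fl minus p53fl/fl they were 0.95, 0.83, 1.42 and 4.28. For p53R245W/fl minus p53fl/fl they were -0.02, 1.79, -1.08 and 0.8. For Gpat2 against p53R172H/fl the difference of medians and the fitted fold change had opposite signs. DESeq2, which replaced outlying counts of Rnf17 in tumours 1512 and 383 and of Gpat2 in 1441, 1817 and 627, turned the sign of Rnf17 in p53R245W/fl versus p53fl/fl (0.09) and of Gpat2 in p53R172H/fl versus p53fl/fl (-0.2) and p53R245W/fl versus p53R172H/fl (0.41). Within set C alone, with 11 p53R245W/fl and 2 p53fl/fl libraries, Rnf17 was fitted at 0.75 and Ccnb3 at 0.1.

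**Figure D3:**
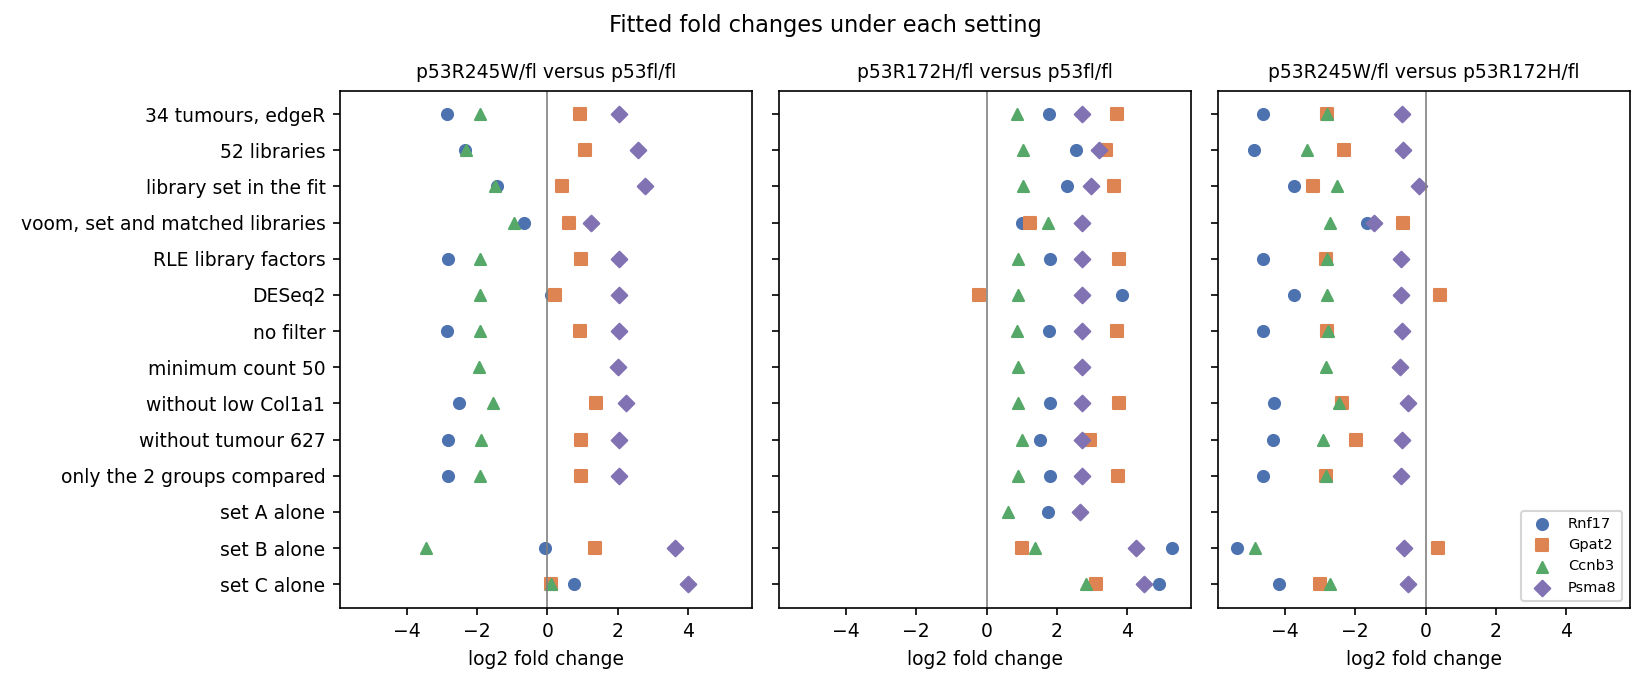
Fitted log2 fold changes of the 4 genes under each setting, with 1 row per setting and 1 panel per comparison; the vertical line is 0 and a missing symbol means that the gene was not tested there. Psma8 kept its sign in every setting shown, while Rnf17, Gpat2 and Ccnb3 each crossed 0 in at least 1 panel.

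Set beside their widely expressed relatives per length of exon, the 4 genes reached between 25.7% and 478.8% of the relative's level in the tumour where each was highest. Gpat2 peaked at 13.16 CPM per kb in tumour 627, where it was 478.8% of Gpam, the mitochondrial relative of liver and fat. Over all tumours Gpam had a median of 3.12 CPM per kb, and Gpat4, an acyltransferase of the endoplasmic reticulum, had 13.17. Ccnb3 peaked at 9.89 CPM per kb in tumour 1439, or 179.5% of Ccnb1, the main mitotic cyclin B. Rnf17 reached 5.63 CPM per kb in tumour 383, which was 65.2% of Tdrd7, a Tudor protein also made in the lens. Psma8 reached 11.1 CPM per kb in tumour 621, or 25.7% of Psma7. Psma7 lay between 17.13 and 90.08 CPM per kb, so it exceeded Psma8 in every tumour.

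**Figure D4:**
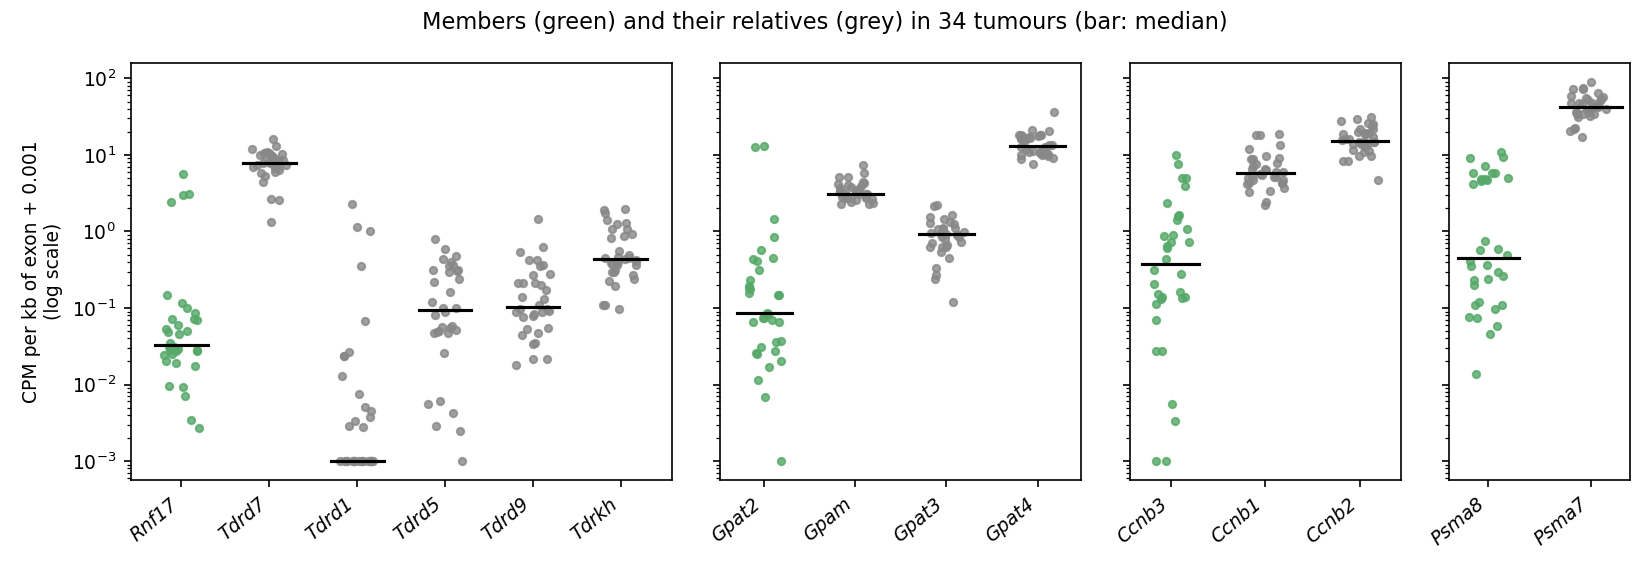
Levels of the 4 genes (green) and their relatives (grey) in 34 tumours, as CPM per kb of exon with 0.001 added on a log axis; bars are medians. The 4 genes have medians from 0.03 to 0.45, below those of Tdrd7, Gpam, Ccnb1 and Psma7, and span several orders of magnitude.

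Of these relatives, Psma7 and Ccnb1 passed the test between genotypes, and neither was called with library set as a covariate or without the 3 tumours of low Col1a1. Psma7 was higher in p53R245W/fl than in p53fl/fl (log2 fold change 0.65, SE 0.2, edgeR adjusted p 0.0345) and than in p53R172H/fl (0.59, SE 0.18, adjusted p 0.0274). With library set as a covariate these adjusted p were 0.599 and 0.448 for Psma7, and without the tumours of low Col1a1 0.0672 and 0.0667. Psma7 had 130.8, 175.7 and 276.6 CPM in p53R245W/fl tumours, 63, 112.6 and 170.1 CPM in p53R172H/fl tumours and 52.6, 109.8 and 223.4 CPM in p53fl/fl tumours (lowest, median and highest). Tumour 1835 had 134.4 CPM of Psma7 with 0.03 CPM of Psma8, so reads of Psma7 were not counted at Psma8 in number there. Ccnb1 was higher in p53R245W/fl than in p53fl/fl (1.04, SE 0.3, adjusted p 0.0239), at 14.1, 37.87 and 78.08 CPM in p53R245W/fl tumours against 10.12, 19.65 and 37 CPM in p53fl/fl tumours, with adjusted p of 0.348 and 0.117 for Ccnb1 in edgeR under the same settings. Tdrd5, Tdrd7, Tdrd9, Tdrkh, Gpam, Gpat3, Gpat4 and Ccnb2 passed the test in 0 of the 3 comparisons. In people, fusions of BCOR to CCNB3 define a sarcoma of bone and soft tissue; counts per gene cannot show a fusion, and Bcor in the 6 tumours with high Ccnb3 lay between 44.3 and 85.9 CPM, within the range of 23.8 to 204.4 CPM of the others.

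Genes next to the 4 did not as a rule share their high levels. Of 24 neighbours, 3 on each side, 5 had their highest level in a tumour where the member was high. They were Cenpj and Gm4032 beside Rnf17, Dusp2 and Stard7 beside Gpat2 and Gm24924, an snRNA gene with a median of 0.88 CPM, beside Psma8. Rnf17, Gpat2, Ccnb3 and Psma8 were high in 4, 2, 6 and 13 of 34 tumours, so an unrelated gene could also peak there. Nothing is read from the count of 5. Dusp2, a phosphatase gene 86.8 kb from Gpat2, had 10.02 CPM in tumour 1441 and 3.05 CPM in tumour 627, against at most 6.88 CPM in the others. Fahd2a, whose end lies 0.1 kb from that of Gpat2, had 2.99 CPM in tumour 1441 and 1.76 CPM in tumour 627, within the 0.51 to 5.02 CPM of the other tumours. Taf4b, 20.9 kb from Psma8, had at most 31.63 CPM in the tumours with high Psma8 and up to 43.61 CPM in the others. Clcn5 and Shroom4, on either side of Ccnb3, likewise stayed within the range of the other tumours or below it. Cenpj, a centriole gene 1.7 kb from Rnf17, had 31.29 CPM in tumour 383, the highest of the 34, against a median of 11.76 CPM. Tumours without high Rnf17 had up to 29.24 CPM of Cenpj, and those with high Rnf17 had a lowest of 11.6 and a median of 14.29 CPM. Of 13274 genes ranked, those whose levels ran most like Rnf17 over the 34 tumours were Atxn2l and Kbtbd12 (Spearman 0.63 and 0.62). For Gpat2 they were Alb and Scn1a (0.66 and 0.61). For Ccnb3 they were Zfp516 and Ccdc159 (0.66 and 0.66), and for Psma8 Gngt2 and Ptpn22 (0.62 and 0.6). Alb had a median of 0.06 CPM, near the level of 3 counts. These correlations were picked as the highest of many, and nothing is read from them.

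Some other germ cell genes were also high in single tumours. Of 96 genes of the germline lists (germ cell markers, piRNA pathway, meiosis and genes held by promoter methylation) with a row, 12 had a median under 1 CPM and a tumour at 10 CPM or more (12.5%, against 3.67% of all genes). Nothing is read from these shares, since 59 of the 96 had a median under 1 CPM, against 6695 of all 20730 genes, and a gene may have a row only through a tumour where it is high. The pattern was not particular to germ cell genes, as 8 of 10 keratinocyte and epithelial markers (80%) also had it. Of these 12, 9 were high in 1 tumour. Tumour 1580 (p53R245W/fl) held Tex101, a sperm surface protein, at 108.2 CPM, the homeobox gene Rhox5 at 41.3 CPM and the oocyte growth factor Bmp15 at 30.6 CPM. Tumour 1439 (p53R172H/fl) held Dmc1, the meiotic recombinase, at 18.3 CPM, Mei1 at 13.2 CPM and Tdrd1 at 12.3 CPM, and its matched library gave 21.4, 12.1 and 12.7 CPM. Tumour 1512 (p53fl/fl), which had high Rnf17, held the piRNA cochaperone Fkbp6 at 96.4 CPM and 4930447C04Rik at 31.8 CPM. The 12 genes were high in 7 of 34 tumours. Of these 7, 4 had at least 1 of Rnf17, Gpat2, Ccnb3 and Psma8 at 10 CPM or more. The same held for 19 of all 34 tumours, and nothing is read from the overlap.

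Other piRNA pathway genes had mixed levels in the tumours with high Rnf17, and Piwil2 and Morc1 reached 10 CPM in 11 and 6 of all 34 tumours. In tumour 627 Mael, a piRNA factor of germ cells, had 68.02 CPM against a median of 0, Piwil2, a PIWI protein, had 55.9 CPM and Morc1, which silences transposons in male germ cells, had 48.47 CPM. Piwil2 had 257.1 CPM in tumour 1512 and 43.16 CPM in tumour 1241, with a median of 5.16 CPM over all tumours. Morc1 had 105.14 CPM in tumour 383 but 0.34 CPM in 1241 and 1.14 CPM in 1512. Mael was at 0 in tumours 383, 1241, 1441 and 1512.

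**Figure D5:**
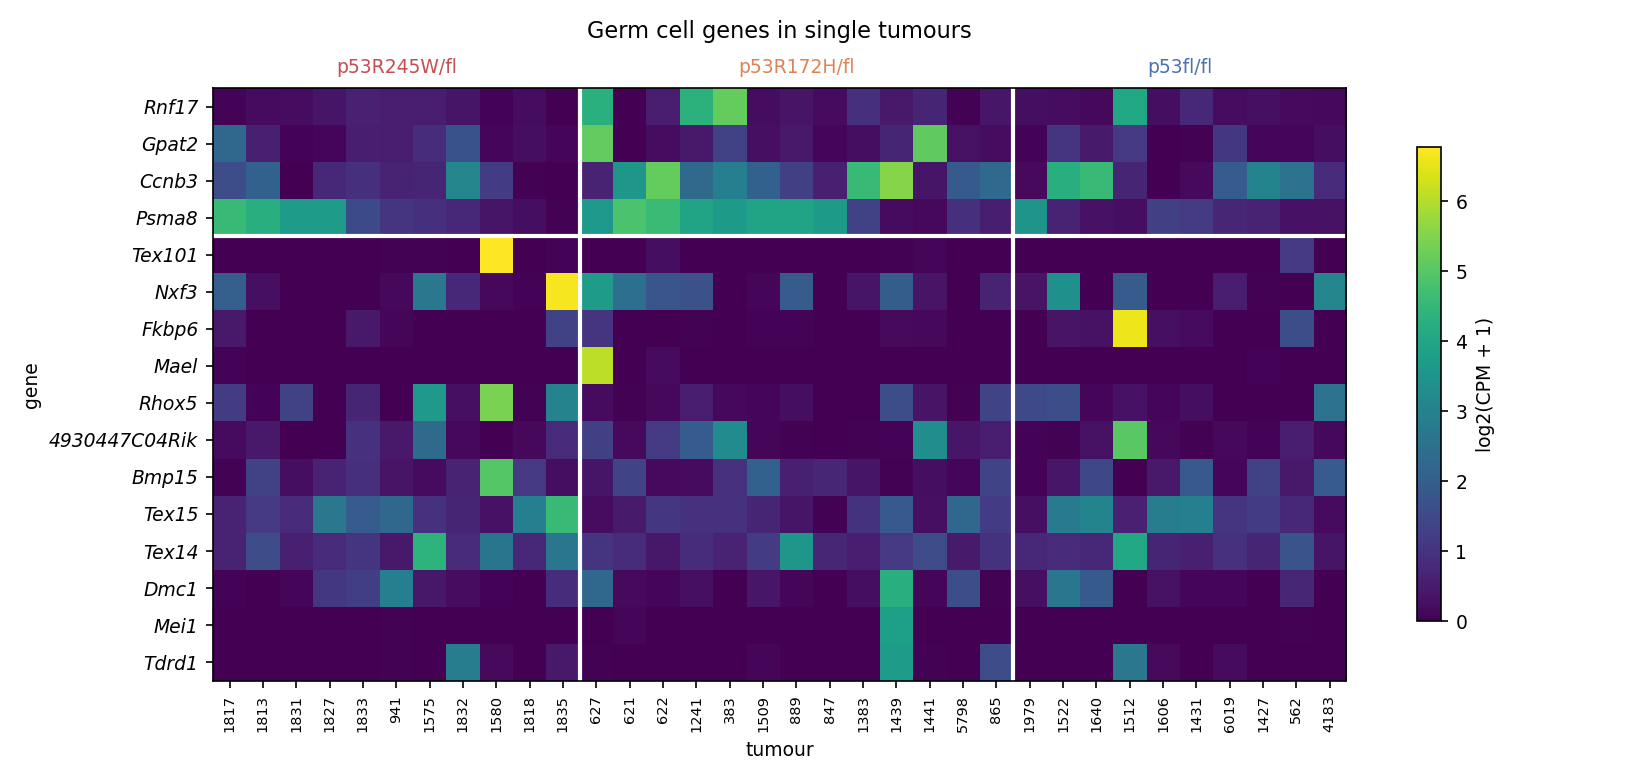
The 4 genes (above the line) and the 12 other germ cell genes with a median under 1 CPM and a tumour at 10 CPM or more, in 34 tumours grouped by genotype; colour is log2(CPM + 1). Bright cells are scattered, with Tex101, Fkbp6 and Mael each bright in 1 tumour.

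Whole germ cells were checked with 29 defining markers, of which 11 have a row and 18, Ddx4, Sycp3 and Prm1 among them, were not analysed here. Dazl, a germ cell RNA-binding protein, reached at most 2.33 CPM, and Dppa3 at most 0.7 CPM. Spaca1, in contrast, had a median of 3.66 CPM, reached 14.12 CPM in tumour 1509 and was at 10 CPM or more in 6 tumours. In the tumours with high Rnf17, Spaca1 had 11.19 CPM in 1512, 8.65 CPM in 1241, 8.17 CPM in 627 and 0.01 CPM in 383. The summed markers ranged over 27.1 to 247.2 CPM in p53R245W/fl, 32.9 to 156.2 CPM in p53R172H/fl and 36.7 to 310.5 CPM in p53fl/fl tumours, and Zbtb16, Gfra1 and Uchl1, which body cells also express, had the highest medians of the 11. In the 4 tumours with high Rnf17 the sum was 38.5 to 310.5 CPM, the top value being tumour 1512 with its Piwil2. In bulk tissue, a few cells with much RNA and many cells with little cannot be told apart. Of the osteoblast (12 genes), skeletal muscle (10) and macrophage (10) markers 0 were called in each comparison. The muscle markers had a median log2 fold change of 2.2 in p53R172H/fl versus p53fl/fl, 0.92 in p53R245W/fl versus p53fl/fl and -1.35 in p53R245W/fl versus p53R172H/fl. Summed muscle markers had a median of 659.7 CPM over p53R245W/fl tumours, 1412.4 CPM over p53R172H/fl tumours and 324.4 CPM over p53fl/fl tumours. Of 10 T cell markers Trac was higher in p53R245W/fl than in p53R172H/fl (1.92, SE 0.64, edgeR adjusted p 0.0399). That is 10% of the list, against 15.2% of all genes. Without the tumours of low Col1a1, Trac was not called (edgeR adjusted p 0.926). Of 10 keratinocyte markers 2 were higher in p53R245W/fl than in p53fl/fl (20%, against 9.04% of all genes) and 3 than in p53R172H/fl (30%, against 15.2%). Their summed level ranged from 3.7 to 2530.5 CPM in p53R245W/fl tumours, against 1.7 to 53.1 CPM in p53R172H/fl and 3.3 to 61.3 CPM in p53fl/fl. Without the tumours of low Col1a1, Cldn1 and Perp were not called against p53fl/fl (edgeR adjusted p 0.36 and 0.184). Nor were Cldn1, Perp and Cdh1 called against p53R172H/fl (0.496, 0.0704 and 0.671). With library set as a covariate, only Cldn1 of these genes was called, against p53R172H/fl (edgeR adjusted p 0.0451). The part of these cells in the levels of the 4 genes was not tested.

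Few genes of the pathways of the 4 were called between genotypes, and the proteasome list held the most. In p53R172H/fl versus p53fl/fl, the edgeR fit called 0 members of any of the 15 lists, against 0.259% of all genes. Some other settings called a few there. DESeq2 called 3 of 30 meiosis genes, with 286 of 19726 genes called in all. With no filter, edgeR called 2 of 24 piRNA genes, 3 of 39 meiosis genes and 3 of 36 genes held by promoter methylation. That setting called 135 of all 20730 genes. In the piRNA list, without Rnf17 and Gpat2, 19 of 24 genes with a row were tested. Fkbp6 was lower in p53R245W/fl than in p53fl/fl (-5.53, SE 1.65, adjusted p 0.0306), a difference led by tumour 1512, and Pnldc1, a nuclease that trims piRNAs, was lower in p53R245W/fl than in p53R172H/fl (-1.55, SE 0.43, adjusted p 0.0145), with tumour 627 highest at 7.79 CPM. Without tumour 627, Fkbp6 did not pass the filter on low counts and was not tested, and Pnldc1 was not called (adjusted p 0.063). Each is 5.26% of the list, against 9.04% and 15.2% of all genes. Of 30 tested meiosis genes, Psmc3ip was higher in p53R245W/fl than in p53fl/fl (0.79, SE 0.24, adjusted p 0.0305), with 0 called there without the tumours of low Col1a1. The share of meiosis genes called was 3.33% against p53fl/fl and 6.67% against p53R172H/fl, under the shares of all genes. Prdm9, which places meiotic breaks, was lower in p53R245W/fl than in p53R172H/fl (-0.77, SE 0.24, adjusted p 0.0301).

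Some proteasome genes other than Psma8 were higher in p53R245W/fl. In p53R245W/fl versus p53fl/fl, 7 of 21 tested genes were higher and 0 lower, or 33.3% against 9.04% of all genes, with a median log2 fold change of 0.43 against 0.02 for all genes. In p53R245W/fl versus p53R172H/fl, 9 were higher and 0 lower, or 42.9% against 15.2% of all genes, with a median of 0.48 against 0.06. Psmb4, a core subunit, had a log2 fold change of 0.98 (SE 0.19, adjusted p 0.00184) against p53fl/fl, and Psmb1 had 0.68 (SE 0.14, adjusted p 0.0025) against p53R172H/fl. Without the 3 tumours of low Col1a1 the counts were 2 and 2, and with library set as a covariate they were 0 and 0.

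The list of germline genes held by promoter methylation had 23 tested genes. Pbk, a mitotic kinase, was higher and Fkbp6 lower in p53R245W/fl than in p53fl/fl. They are 8.7% of the list, against 9.04% of all genes, and Pbk was not called without the tumours of low Col1a1 (edgeR adjusted p 0.296). Not every gene of the list was silent in these tumours. Pbk had at least 5.85 CPM in each tumour and reached 10 CPM in 28 of 34, while Ttk, Nuf2 and Kit did so in 28, 34 and 22. Against p53R172H/fl, Dnmt3l, Rhox5, Zpbp and Pbk were higher and Pdha2 lower, or 21.7% against 15.2% of all genes. Rhox5 had a fold change of 3.88 (SE 1.21, adjusted p 0.028) with a highest level of 41.34 CPM in p53R245W/fl, against 2.06 CPM in p53R172H/fl, and the count was 0 without the tumours of low Col1a1. Of 44 genes in the list of germline gene repressors, Zfp57 was higher in p53R245W/fl than in p53fl/fl (2.07, SE 0.61, adjusted p 0.0277). In that comparison 0 were called without the tumours of low Col1a1. The list also holds Tet1, Tet2 and Tet3, which act on methylated cytosine and are not repressors by methylation. Against p53R172H/fl, Rnf2 (0.67, SE 0.14, adjusted p 0.00362), Yaf2 (0.78, SE 0.2, adjusted p 0.00903) and Zfp57 were higher, and Tet3 (-0.64, SE 0.18, adjusted p 0.0144) was lower. Without the tumours of low Col1a1, Zfp57 was not called there (edgeR adjusted p 0.674). Its median was 1.31 CPM in p53R245W/fl and 1.76 CPM in p53R172H/fl, with highest levels of 35.55 and 7.03 CPM. Rnf2 and Yaf2 encode parts of Polycomb complexes, and Tet3 encodes an enzyme that oxidises methylated cytosine. Dnmt1, E2f6, Mga and Pcgf6 were not called in any of the 3 comparisons. Of 14 other Tudor domain genes Lbr was higher in p53R245W/fl than in p53fl/fl (0.45, SE 0.13, adjusted p 0.0291). Of 16 other glycerolipid acyltransferase genes Agpat1 was lower in p53R245W/fl than in p53fl/fl (-0.49, SE 0.13, adjusted p 0.0206), and Agpat2 (0.77, SE 0.23, adjusted p 0.024) and Mogat2 (1.99, SE 0.67, adjusted p 0.0395) were higher than in p53R172H/fl. Of 15 other cyclin and mitotic kinase genes Pkmyt1, an inhibitor of Cdk1, was lower in p53R245W/fl than in p53fl/fl (-0.95, SE 0.25, adjusted p 0.0148), and Cdc25a was lower than in p53R172H/fl (-0.49, SE 0.17, adjusted p 0.0461). Without the tumours of low Col1a1, Lbr, Agpat1, Agpat2, Mogat2 and Cdc25a were not called, and without tumour 627 Mogat2 was not called. In p53R245W/fl versus p53fl/fl the shares called were 7.14% of Tudor, 6.25% of acyltransferase and 2.27% of repressor genes, under the 9.04% of all genes, and 13.3% of the cyclin list. In p53R245W/fl versus p53R172H/fl they were 0% of Tudor, 12.5% of acyltransferase, 6.67% of cyclin and 9.09% of repressor genes, under the 15.2% of all genes. Of 15 proliferation genes Ccnb1 alone was called, in p53R245W/fl versus p53fl/fl, or 6.67% against 9.04% of all genes. With library set as a covariate in edgeR, 0 genes of the Tudor, acyltransferase, cyclin, piRNA, meiosis, proteasome, methylation and repressor lists were called in any comparison, while limma voom with set and matched libraries called 1 meiosis, 1 methylation and 1 repressor gene in p53R245W/fl versus p53R172H/fl.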

How the data were processed

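Stranded mRNA libraries were made from flash-frozen primary tumours, per the labels' protocols. The deposited values are raw read counts per Ensembl gene, to which the authors applied no normalization as far as the values show; alignment with STAR to GRCm38 is per the submitters' processing notes. Neither the counting program nor the annotation release is given in the sources used here. Identifiers were matched without version to GENCODE M21, which named 20668 of 20730 genes and left 62 unnamed; 16834 matched with the same version. The lowest gene total was 260.

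Set B libraries were matched to set A or C libraries by Spearman correlation of residual log2 CPM over 11294 genes (0.622 to 0.909, next best at most 0.403), and matched counts were summed. These 34 sums entered edgeR 4.0.16 in R 4.3.3 (TMM, filterByExpr with a minimum count of 10, robust quasi-likelihood F tests), with Benjamini-Hochberg adjustment over 19726 genes and a threshold of 0.05. All 3 genotypes share 1 fit. CPM use TMM library sizes, and log2 CPM a prior count of 2. SE were taken as |log2 fold change| divided by the root of the F statistic. Where nothing says that libraries are separate animals, p-values measure only the spread between these tumours. Intervals and floors (3 counts) cover counting error only. Named genes from a list are up to 4 called genes of smallest p, or 2 of largest change where none was called; 1 gene that this names is not reported here. Members and lists were chosen with earlier results of these data known. Alternatives used limma 3.58.1 and DESeq2 1.42.0. Leaving out tumour 627, in which both the X-linked Xist (727.15 CPM) and the Y-linked Ddx3y (77.9 CPM) were high, was added after seeing the data. Other tumours with both genes, such as 1512 (119.31 and 69.94 CPM), were kept.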

Additional observations from a re-analysis of the deposited data

Results flagged for a closer look

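Dixon's criterion for a value apart from its group could be applied in groups of 4 to 10 samples, which here is the p53fl/fl group of 10 tumours; 5 sets of values were compared with it, and chance alone sets apart about 1 in 20. These values also chose the genes, so the outcome is a description and supports nothing. In p53fl/fl tumour 1512, Rnf17 had 15.25 CPM, while the other 9 tumours of the group had at most 0.73 CPM. In p53fl/fl tumour 1979, Psma8 had 10.27 CPM, while the other 9 had at most 1.44 CPM. Each of these tumours had a single library, so the levels were not measured again.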

How the results depend on the processing

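Against 51, 1783 and 3000 genes called in p53R172H/fl versus p53fl/fl, p53R245W/fl versus p53fl/fl and p53R245W/fl versus p53R172H/fl, the 52 libraries as separate samples gave 708, 3365 and 5829, which counts matched libraries more than once. Library set as a covariate gave 1 in p53R245W/fl versus p53fl/fl and 74 in p53R245W/fl versus p53R172H/fl. limma voom with set and a correlation of 0.857 between matched libraries gave 2, 3 and 293. In p53R172H/fl versus p53fl/fl, DESeq2 gave 286, no filter 135, leaving out tumour 627 gave 26 and set A alone 95. Leaving out low Col1a1 gave 853 and 1280 in the comparisons of p53R245W/fl, and fitting only the 2 groups gave 923 in p53R245W/fl versus p53fl/fl. Set B alone gave 1, 4 and 615, and set C alone 0, 0 and 3 by edgeR, with 1433 and 607 genes at an unadjusted p under 0.05 behind the counts of 0; fewer libraries enter these fits. The cause of the other differences was not tested. Of 141 alternative fold changes of Rnf17, Gpat2, Ccnb3 and Psma8, 6 had the other sign; 5 are given above, and the sixth is Gpat2 in p53R245W/fl versus p53R172H/fl within set B (0.34). Of 36 alternative differences of medians 2 turned, both for Rnf17 in p53R245W/fl minus p53fl/fl (0 and 0.39). A minimum count of 50 left Rnf17 and Gpat2 untested, and Gpat2 was not tested in set A. No paired analysis was possible because tumour numbers are not shared between genotypes. Levels below 3 counts are limited by depth.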
